A study of Mus musculus with 14 samples.

Results

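Acod1, Aoah, Chil1, Slc2a6, Ncf4, Mefv, Dram1, Procr and Icam1, 9 genes linked to inflammatory activation of myeloid cells, were followed through RNA data of mouse liver. They were taken from the 29737 gene names that the deposited tables hold between them and were selected on their bulk levels, which were much higher where the label is KO than where it is wild type. That contrast is therefore a description, with no test for these genes. No numerical threshold set the choice, and all 9 genes were found in all 3 tables.

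Whole-liver RNA was sequenced in 12 libraries. The labels give 3 replicates each to wild type mice and to mice with the Ms4a7 gene knocked out (KO), both fed a NASH diet for 22 weeks, NASH being nonalcoholic steatohepatitis, a fatty and inflamed state of the liver. Another 3 replicates each come from wild type, chow-fed mice that received tail-vein injections on 6 consecutive days of phosphate-buffered saline (PBS) or of lipid droplets (LD). Single-nucleus RNA was read in 1 wild type and 1 KO library of the NASH diet, each a pool of 3 livers. Strain, age, sex, the source of the droplets and the design of the knockout allele are not in the labels. Nothing in them says that replicates are separate animals, so p-values measure the spread between these libraries only.

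The labels of the bulk libraries are in doubt. Ms4a7 was at 9.7 to 25.8 normalized counts (gene reads divided by a size factor of the library) where the label is wild type and at 102 to 136 where it is KO. In the other table it was at 62.2 to 163 in the libraries labelled PBS and at 7.6 to 10.5 in those labelled LD. A header line of the table labelled wild type and KO calls its groups untreated and treated, and each table's name points to the other experiment. Every direction below therefore belongs to "the libraries labelled" so. Libraries held 21945394 to 23126164 gene reads in the first table and 39318264 to 41346464 in the second.

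As background, macrophages and neutrophils that meet endotoxin, cytokines or other danger signals switch on a shared set of genes, many of them through the transcription factor NF-kappaB. Acod1 makes itaconate, a metabolite that restrains inflammation and inhibits bacterial growth. Aoah removes acyl chains from endotoxin and so inactivates it, Chil1 is a secreted chitinase-like lectin without enzyme activity, and Slc2a6 is a hexose transporter of the lysosomal membrane. Ncf4 is a cytosolic subunit of the phagocyte NADPH oxidase, Mefv encodes pyrin, the sensor of an inflammasome, and Dram1 is a lysosomal membrane protein that promotes autophagy and is induced by p53. Procr, the endothelial protein C receptor, and Icam1, the adhesion receptor that leukocyte integrins bind, act at the cell surface.

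Promoter letters were examined because the 9 genes were high in the same libraries. RefSeq windows from 250 bases before to 50 after the start (GRCm38.p6) were at hand for 8 of the 9 genes, Ncf4 being the one without. Acod1 and Icam1 both held the run GGAAATTCC, which 0.317% of 32851 promoter windows hold on either strand. The run was chosen with the promoter letters known, so that share is no measure of enrichment. Both genes are shown for that shared run, with matches to the kappaB-type pattern GGNNNTTCC, on either strand, in capitals. The Acod1 stretch (chr14:103046762-103046976, plus strand) ends at the base before the GENCODE gene, and the Icam1 stretch (chr9:21015690-21015939, plus strand) ends at the base before the RefSeq start.
Acod1: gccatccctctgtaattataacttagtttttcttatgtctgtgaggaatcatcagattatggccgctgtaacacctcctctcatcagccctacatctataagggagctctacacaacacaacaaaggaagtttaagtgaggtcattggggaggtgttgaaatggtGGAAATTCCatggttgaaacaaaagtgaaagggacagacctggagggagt
Icam1: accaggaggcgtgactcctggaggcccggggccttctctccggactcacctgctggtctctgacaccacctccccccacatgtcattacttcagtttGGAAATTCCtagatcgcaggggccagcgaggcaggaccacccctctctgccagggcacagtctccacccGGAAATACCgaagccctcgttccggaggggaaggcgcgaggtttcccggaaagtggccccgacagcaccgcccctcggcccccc
Counted from the RefSeq start, the shared run lies at -85 to -77 in Acod1 and at -153 to -145 in Icam1, and a further Icam1 match, GGAAATACC, at -84 to -76. The pattern GGNNNTTCC was found in 3 of the 8 windows, Aoah being the third, against 18.5% of all windows. The longer kappaB form, with 1 more free base, was found in 1, Chil1, against 18.2%. An AP-1 pattern (TGANTCA) was found in 1, Procr (7.81% of all windows), an ETS and PU.1 pattern (AGGAAGT) in 1, Acod1 (9.35%), and the IRF pattern in 1, Aoah (3.44%). A C/EBP pattern (TTGCNNAA) was found in 3, Aoah, Dram1 and Procr (10.8%). A TATA pattern (TATAAA, read on the gene's strand only) was found in 2, Acod1 and Icam1 (8.32%), in Icam1 13 bases after the RefSeq start. The other patterns were read on both strands. A match describes letters and not binding.

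In the table of wild type and KO, all 9 genes were higher in every library labelled KO than in any labelled wild type, as the choice of genes implies. That order held for 12.4% of 15827 genes tested, and limma called 3.72% of them in either direction at an adjusted p under 0.05. The median difference of the 9, KO minus wild type, was 3.89 on the log2(normalized count + 1) scale, against -0.02 for all genes tested. By size of the rise Acod1, Chil1 and Slc2a6 ranked 2, 3 and 4 of the 15827, Procr, Dram1 and Mefv 16, 18 and 19, Aoah 34, Ncf4 95 and Icam1 191. A gene was tested if 3 or more of the 6 libraries held 10 normalized counts of it. Acod1 and Slc2a6 reached 10 in no library labelled wild type, and 4 of the 9 reached it in all 3, so several entered the test only through the group where they are high.

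**Figure D1:**
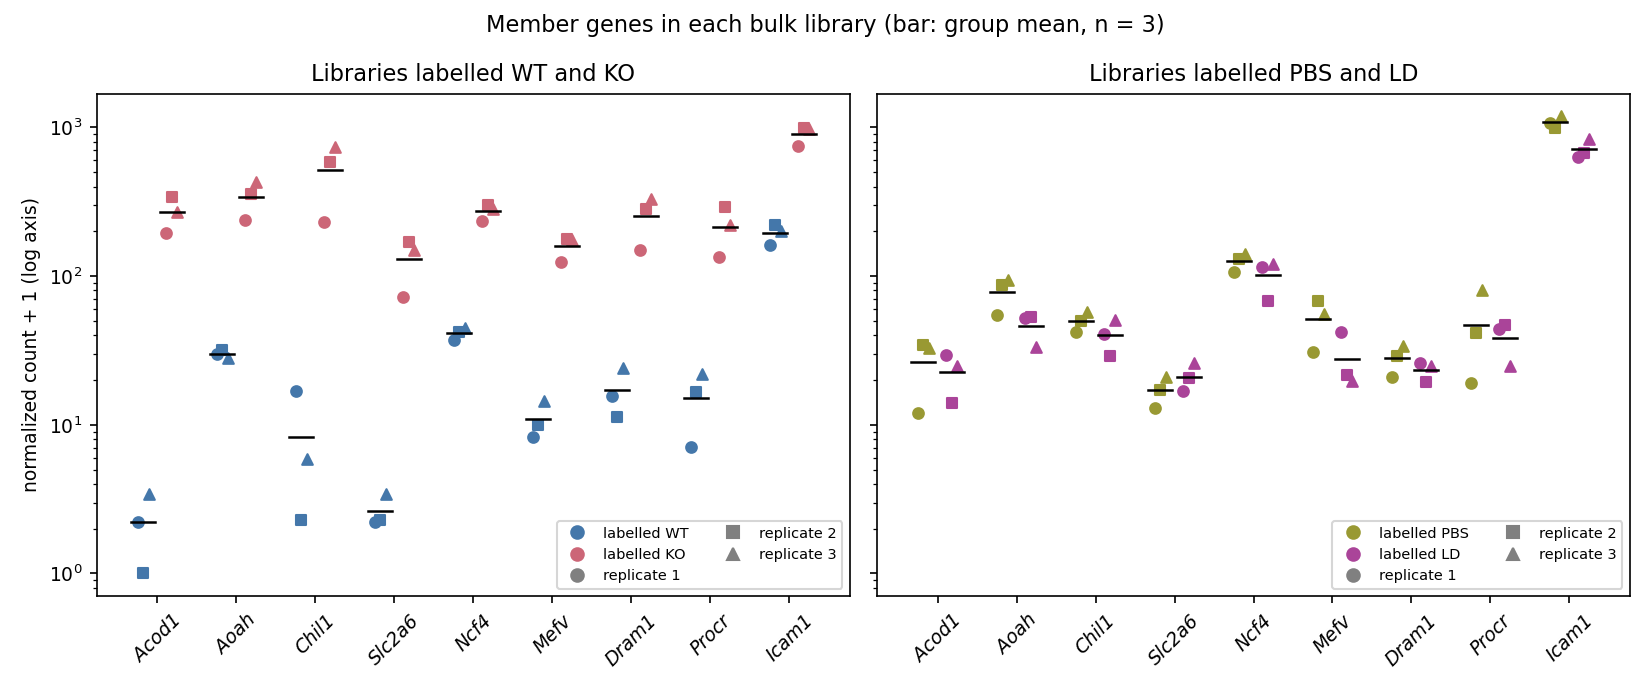
Normalized count plus 1 on a log axis for each of the 9 genes (x axis) in every bulk library, the 2 tables side by side and scaled separately; symbols mark the replicate and bars the group mean. The libraries labelled KO lie above those labelled wild type for all 9 genes, as the choice of genes implies, and for 12.4% of all genes tested. Those labelled PBS and LD overlap for 7 of the 9. Over all genes tested, the libraries labelled LD lay wholly above those labelled PBS for 12.6% and wholly below for 12.8%.

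Gene by gene, Acod1 (chr14:103046977-103056573, plus strand) was at 1.21, 0 and 2.45 normalized counts in wild type replicates 1 to 3, as labelled, and at 195, 339 and 268 in KO replicates 1 to 3. It was close to absent in the first group and plainly present in the second, at 3 reads against 679. Aoah (chr13:20794113-21036617, plus strand) was at 29.1, 31 and 26.9 against 236, 358 and 431. Its libraries labelled wild type lay close together, and the spread of this gene was nearly all among those labelled KO. Chil1 (chr1:134182176-134190181, plus strand) was at 15.8, 1.29 and 4.9 against 230, 583 and 735. This was the most variable of the 9 genes, with means of 7.32 ± 7.53 (SD, n = 3) and 516 ± 259 and a log2 difference of 6.25 ± 0.73 (SE).

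Slc2a6 (chr2:27021363-27027998, minus strand), the hexose transporter, was at 1.21, 1.29 and 2.45 against 71.3, 168 and 149. As with Acod1, a handful of reads stood for each library labelled wild type, and the difference of 5.56 ± 0.42 (SE) ran from 4.25 to 6.3 over other pseudocounts and tools. Ncf4 (chr15:78244801-78262580, plus strand), the oxidase subunit, was at 36.4, 41.3 and 44.1 against 233, 300 and 280. Both groups were tight, and the mean was 6.68-fold higher in the libraries labelled KO. Mefv (chr16:3707218-3718097, minus strand), which encodes pyrin, was at 7.27, 9.04 and 13.5 against 123, 176 and 175, 15.9-fold higher by the mean.

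Dram1 (chr10:88322804-88379080, minus strand), the lysosomal autophagy gene, was at 14.5, 10.3 and 23.3 against 150, 280 and 327. Procr (chr2:155751117-155755471, plus strand) was at 6.06, 15.5 and 20.8 against 134, 288 and 219. These genes had nearly the same fold between means, 15.7 and 15.1. Icam1 (chr9:21015985-21028817, plus strand) was at 160, 218 and 200 against 745, 989 and 978, 4.69-fold higher. It had the highest count in both groups and the smallest fold of the 9. An antisense gene, Gm47079, overlaps Icam1, and a pseudogene and a small nuclear RNA gene lie within Aoah; the sources used here do not state whether reads were counted by strand.

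The 9 genes moved together among the libraries labelled KO. Replicate 1 was the lowest of the 3 for 9 of 9 genes, with a median of 0.691 of the group mean, against 1.11 in replicates 2 and 3 each. Summed over 16 macrophage markers, replicate 1 was at 48430 normalized counts and replicates 2 and 3 at 79545 and 79038. Summed over 13 neutrophil markers it was at 297, against 701 and 705. Most of that sum was 1 gene, Csf3r, at 231 in replicate 1 and at 489 and 494 in replicates 2 and 3. No such common order of the 9 genes held in the libraries labelled wild type, where replicate 1 was lowest for 5 of them and replicate 3 highest for 6. The marker sums were lowest in replicate 1 there too. In wild type replicates 1 to 3 they were 8446, 16032 and 16486 for macrophage markers and 81.2, 145 and 129 for neutrophil markers.

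**Figure D2:**
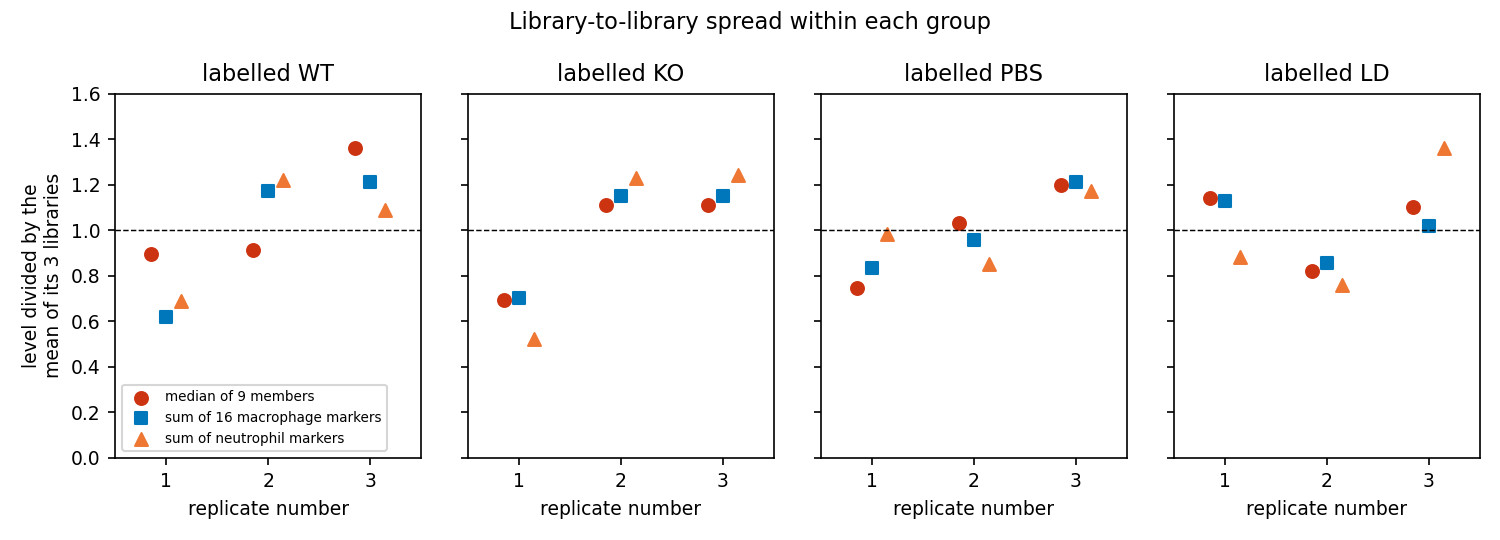
Level in each library divided by the mean of its group's 3 libraries (y axis) against replicate number (x axis), for the median of the 9 genes, the summed macrophage markers and the summed neutrophil markers. In the libraries labelled KO replicate 1 is low in all 3 measures, at 0.691, 0.702 and 0.524. Csf3r makes up most of the neutrophil sum in those libraries. With the wild type label replicate 1 is also the lowest in all 3 measures, at 0.896, 0.619 and 0.688.

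Markers of several cell types were compared between the same groups. Of 16 macrophage markers 12 passed the test as higher in the libraries labelled KO. The sum over all 16 ran from 8446 to 16486 in the libraries labelled wild type and from 48430 to 79545 in those labelled KO. Marco and Lyz2 gave much of that rise, with means of 404 against 14123 and of 804 against 13385. Clec4f and Mertk overlapped between the groups. Neutrophil markers were scarce: 4 of 13 had enough counts to test, 1 of these, Csf3r, was called higher, and the sum ran from 81.2 to 145 against 297 to 705. Members of that list differed among themselves. S100a8 and S100a9 were at 4.92 and 23.3 in KO replicate 1 and at 39.2 to 41.4 and 72.1 to 77.2 in replicates 2 and 3, against 2.45 to 7.75 and 3.67 to 14.2 in the libraries labelled wild type. The granule genes Mpo and Elane were not higher: Mpo was at 0 to 8.57 normalized counts with the wild type label and at 0 to 1.15 with the KO label, and Elane at 3.64 to 10.3 and at 2.3 to 8.27. Camp and Ngp overlapped between the groups. Of 8 monocyte markers 3 were called higher, with a list median of 1.76, among them Itgam (3.52 ± 0.36 SE) and S100a4 (2.45 ± 0.43). Of 11 endothelial markers 1 was called higher, with a list median of 0.13. The part of these markers in the levels of the 9 genes was not tested, and in whole liver more cells of a type and more RNA per cell cannot be told apart.

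Genes that work with the 9 were taken from 11 lists, 151 genes in all. In the libraries labelled KO 39 of the 128 tested were called higher and 1 lower (limma, adjusted p under 0.05), against 3.02% and 0.701% of all genes. These counts are a description. The lists were built around genes chosen on this same contrast, with earlier results of these data known. Clec4e and Pstpip1, both among the 39, entered the test only through the group where they are high. Without KO replicate 2 or 3 the calls numbered 14 and 15, and without any other 1 library 25 to 29. NADPH oxidase partners gave 5 higher of 9, with a list median of 1.76, led by the cytosolic subunit Ncf1 (2.46 ± 0.31 SE, adjusted p = 0.0105) and the membrane subunit Cyba (2.24 ± 0.32). Classical activation genes gave 10 higher of 16 (median 1.93), led by the lectin receptor Clec4e, from 0.812 ± 0.703 to 51.8 ± 35.8 normalized counts (SD, n = 3), and the formyl peptide receptor Fpr2 (3.56 ± 0.58). NF-kappaB feedback targets gave 8 of 15 (median 0.89), led by the subunit Relb (3.16 ± 0.30) and the inhibitor Tnfaip3 (2.49 ± 0.25).

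Of the sensors and effectors around Mefv and Acod1, some were called. The pyrin list gave 4 higher of 15 (median 1.06), led by Il1b (3.35 ± 0.44), whose product inflammasomes release, and the pyrin partner Pstpip1 (2.52 ± 0.53). The list of itaconate and endotoxin handling gave 4 of 14 (median 0.32), led by Irak3 (3.04 ± 0.37), a brake on Toll-like receptor signalling, and the endotoxin co-receptor Cd14 (2.39 ± 0.26). Leukocyte adhesion gave 3 of 12 (median 1.35), led by Itgb2 (2.38 ± 0.37) and Itgal (2.34 ± 0.35), the chains of an integrin that binds Icam1. Alternative activation gave 3 higher, led by Clec10a (2.02 ± 0.39) and Klf4 (1.88 ± 0.34), and 1 lower, Pparg (-0.96 ± 0.18), of 10.

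The families closest to 4 of the genes were mostly not called. The protein C pathway gave 1 higher of 9, Itgam (3.52 ± 0.36), and autophagy genes around Dram1 gave 1 of 17, Tfeb (0.54 ± 0.11), with list medians of -0.02 and -0.05. Of the other hexose transporters 0 of 8 were called by limma, edgeR or DESeq2, and 1 had an unadjusted p below 0.05. Of the other chitinase family genes 0 of 3 were called by limma or edgeR and 1 by DESeq2, and 1 had an unadjusted p below 0.05. Calls of Ncf1, Relb, Tnfaip3, Il1b, Irak3, Cd14 and Itgam held without any 1 library. Clec4e was called in the 3 such fits in which it had enough counts. All 3 keep every library labelled KO, so they do not show whether its call depends on 1 of those. Cyba and Itgb2 lost their calls without KO replicate 2 or 3 (adjusted p up to 0.0731), Itgal also without wild type replicate 2 (0.0534 there), Fpr2 without wild type replicate 3 or any 1 library labelled KO (up to 0.087), and Pstpip1 without any 1 library labelled wild type (up to 0.0789). Clec10a, Klf4 and Pparg kept theirs in 1 of 6 such fits each, without wild type replicate 2, 1 and 2, with adjusted p up to 0.134 otherwise, and Tfeb in 0 (up to 0.151).

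In nuclei Acod1, Chil1 and Slc2a6 were far higher in a neutrophil-like group than in any other, while Aoah and Dram1 were highest in a macrophage-like group. The table gives, for 12 numbered groups of nuclei in each genotype, the mean of UMIs scaled to 10000 per nucleus, so every value is from 1 pooled library with no replicate and no test. Group 5 is neutrophil-like: 10 of 12 neutrophil markers were highest there, S100a9 at 49.1 in wild type and 69.4 in KO. The Kupffer cell genes Clec4f and Marco were at 0, but other macrophage markers were present in group 5. Adgre1 was at 1.67 and 1.05, Csf1r at 1.68 and 1.11 and Lyz2 at 0.718 and 7.33, and Mpeg1 was highest there. The 16 macrophage markers summed to 13.5 and 15.7 in group 5, against 84.5 and 106 in group 3. The source of that signal in group 5 was not tested. Group 3 is macrophage-like, with 15 of 16 macrophage markers highest there, Adgre1 at 9.29 and 11, and S100a9 at 0.0105 and 0.0335. The neutrophil marker Csf3r was at 2.08 and 1.86 in group 3, against 53.8 and 40.1 in group 5. By the mean of both genotypes, 6 of the 9 genes were highest in group 5, 2 in group 3 and 1 in group 10, which is dendritic cell-like (8 of 9 markers highest). Procr counts among the 6 through its KO value alone, and Ncf4 and Mefv lead in group 5 by only 1.32 and 1.65 times the level of group 3. The working description of the 9 as macrophage activation genes is thus not borne out for all of them in these nuclei.

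**Figure D3:**
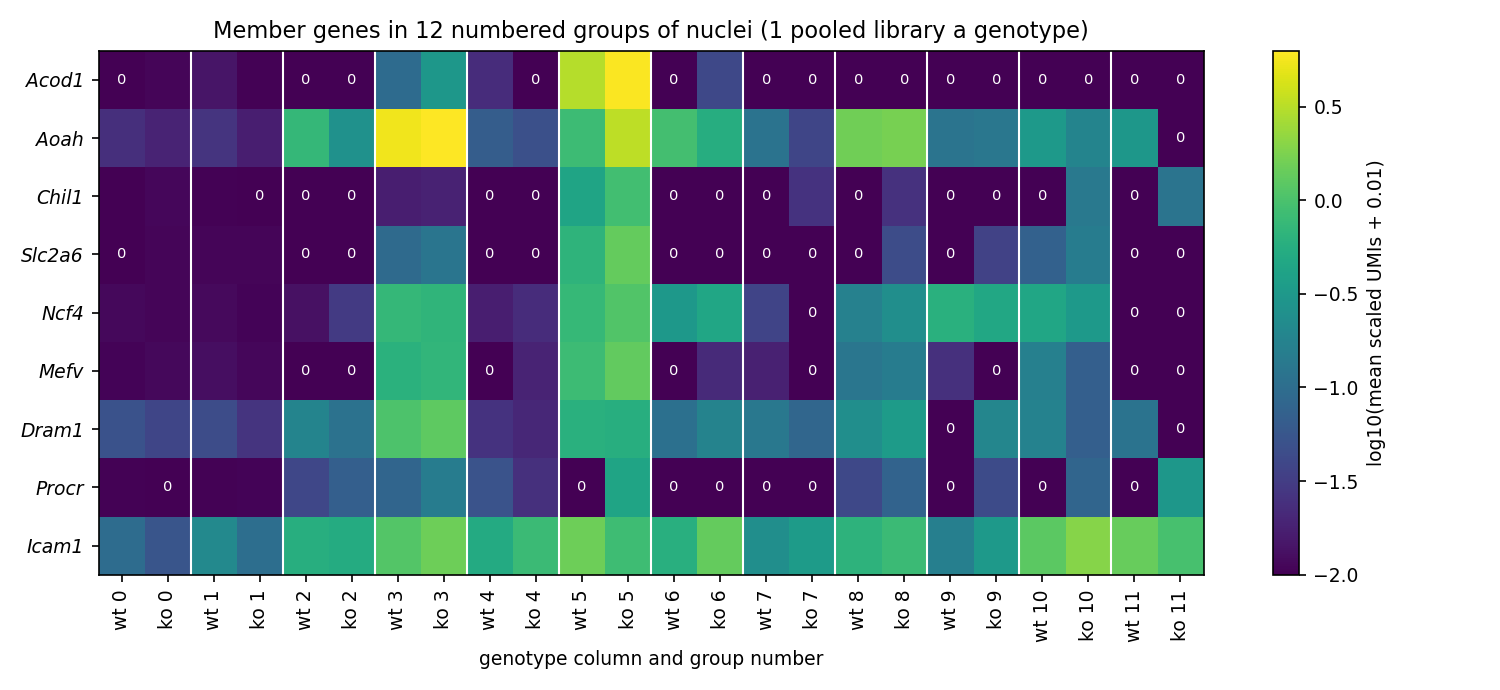
Mean scaled UMIs of the 9 genes (rows) in the wild type and KO columns of 12 numbered groups of nuclei (columns), as log10 of the value plus 0.01; cells marked 0 hold a value of exactly 0. Acod1, Chil1 and Slc2a6 are brightest in group 5, Aoah and Dram1 in group 3, and Icam1 is above 0 in every column.

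Acod1, Chil1 and Slc2a6 were the most restricted. Acod1 was at 3.09 in wild type and 6.07 in KO nuclei of group 5, at 0.0864 and 0.292 in group 3, and at 0 in both genotypes in 6 groups. Group 5 thus exceeded the next group 24.2-fold by the mean. Chil1 was at 0.426 and 0.895 in group 5, 10.6-fold above the next group, and at 0.00714 and 0.00872 in group 3. Slc2a6 was at 0.645 and 1.35 in group 5, 9.71-fold above the next, and at 0.0828 and 0.114 in group 3. The same 3 genes stood at ranks 2 to 4 by size of the rise in the bulk libraries labelled KO. The contrast behind those ranks also served to choose the genes. In the libraries labelled wild type, Acod1, Chil1 and Slc2a6 had only 3, 18 and 4 reads in all. A link between those ranks and the levels in group 5 was not tested.

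Ncf4 and Mefv were high in both myeloid groups. Ncf4 was at 0.739 and 1.08 in group 5 and at 0.715 and 0.67 in group 3, and it was also present in group 9, B and plasma cell-like (9 of 9 markers highest), at 0.585 and 0.471. Mefv was at 0.822 and 1.32 in group 5 and at 0.609 and 0.688 in group 3. With 1 library a genotype, the order of these 2 groups cannot be settled for either gene. Aoah was led by group 3, at 5.49 and 6.29, with 0.821 and 3.29 in group 5 and 1.54 and 1.69 in group 8, which has no name here. Dram1 was likewise led by group 3, at 1.04 and 1.25, with 0.582 and 0.555 in group 5.

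The surface receptors were spread more widely. Procr was low throughout: its highest value, 0.426 in KO nuclei of group 5, stood beside 0 in wild type, and the smallest value above 0 of any gene in that KO column was 0.227. In group 3 it was at 0.071 and 0.139, and in the endothelial-like group 4 (10 of 11 markers highest) at 0.0421 and 0.0144. Its place is therefore not resolved. Icam1 was above 0 in all 24 columns, at 1.24 and 1.95 in group 10, 1.11 and 1.51 in group 3, 1.4 and 0.956 in the mesothelial-like group 11 (7 of 7 markers highest), 1.5 and 0.851 in group 5, and 0.504 and 0.8 in group 4. By the mean of both genotypes the hepatocyte-like groups 0 and 1 had the lowest Icam1, from 0.0447 to 0.197.

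Within group 3, 8 of the 9 genes were higher in KO than in wild type nuclei, as were 52.4% of all genes above 0 there. Ncf4 was the exception. In group 5 it was 7 of 9, all but Dram1 and Icam1, against 45.6% of genes above 0 and 54.0% of genes with a mean level of 0.2 to 10, the range that holds all 9 there. Acod1, Chil1 and Slc2a6 were 1.96, 2.1 and 2.09 times as high in KO nuclei of group 5. In group 8 it was 8 of 9 against 52.0%. Elsewhere fewer were higher in KO, given here with the share of all genes above 0. There were 5 in groups 6 and 9 (52.5% and 51.2%), 4 in groups 0 and 10 (52.4% and 51.9%) and 3 in group 4 (55.2%). Groups 2, 7 and 11 had 2 (53.6%, 49.8% and 52.3%), and group 1 had 1 (47.5%). The shares leave out genes at 0 in both genotypes, but the counts of the 9 do not. Such genes cannot be higher in KO, as with Acod1 in group 8 and Acod1, Chil1, Slc2a6 and Mefv in group 2. Group 5 is the least finely resolved, with 8039 and 6417 genes above 0 in its wild type and KO columns against 16653 and 16616 in group 3. The sum over 12 hepatocyte markers was higher in KO in all 12 groups, at 47.7 in wild type and 116 in KO in group 5, 20.9 and 42.1 in group 3, and 8.47 and 20.9 in group 8. Its part in these differences was not tested. Ms4a7 itself was at 1.25 in wild type and 0.622 in KO nuclei of group 3, lower but not absent in the KO column.

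The genes whose levels followed each of the 9 most closely across the 24 columns were also listed. Pearson correlations of log2(value + 0.01), over 14426 genes, are given as a description: columns share 2 libraries and differ in depth. Closest to Acod1 were Slfn4 (0.961) and Hcar2 (0.954), to Slc2a6 Il1b (0.938) and Alox5ap (0.928), and to Chil1 Il1r2 (0.857). Ncf4 was closest to Vav1 (0.989) and Nckap1l (0.978), Mefv to Emilin2 (0.986) and Sirpb1c (0.974). Aoah was closest to Klra2 (0.926) and Vsig4 (0.888), and Dram1 to Klra2 (0.873) and to Aoah itself (0.866). Icam1 was nearest to Wdr1 (0.886) and Jdp2 (0.879), and Procr to Leprot (0.749) and Arf2 (0.747). Between the 9 genes themselves the correlation ran from 0.22, for Aoah with Chil1, to 0.87, for Slc2a6 with Mefv and for Aoah with Dram1.

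The libraries labelled PBS and LD, which were not used by the rule that chose the genes, allow a test. Earlier results of these data were known, however, when genes and lists were chosen. Icam1 fell in the libraries labelled LD, and the other 8 genes did not pass; over all 14900 genes tested 4.16% were called. That is 1 of 9 called lower, where 2.21% of all genes were, and 0 called higher, where 1.95% were. Both edgeR and DESeq2 also called Icam1 alone. At an unadjusted limma p under 0.05 there were 2 of 9, but the share of all genes at that threshold is not given here. That count therefore cannot be set against a background. The median difference of the 9, LD minus PBS, was -0.33 against 0.0 for all genes, and 8 of 9 values lay below 0. All 9 genes had at least 10 normalized counts in every library labelled PBS.

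Icam1 was at 1068, 995 and 1186 normalized counts in the libraries labelled PBS, replicates 1 to 3, and at 636, 675 and 835 in those labelled LD. The groups did not overlap, which held in that direction for 12.8% of genes. Means were 1083 ± 96.2 and 715 ± 106 (SD, n = 3), a log2 difference of -0.60 ± 0.12 (SE, 95% interval -0.89 to -0.32, limma adjusted p = 0.0316). The call held only without LD replicate 3 (adjusted p = 0.00437). It was lost without PBS replicate 1, 2 or 3 (0.0765, 0.0898 and 0.134) and without LD replicate 1 or 2 (0.102 and 0.115), with differences of -0.66 to -0.52.

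**Figure D4:**
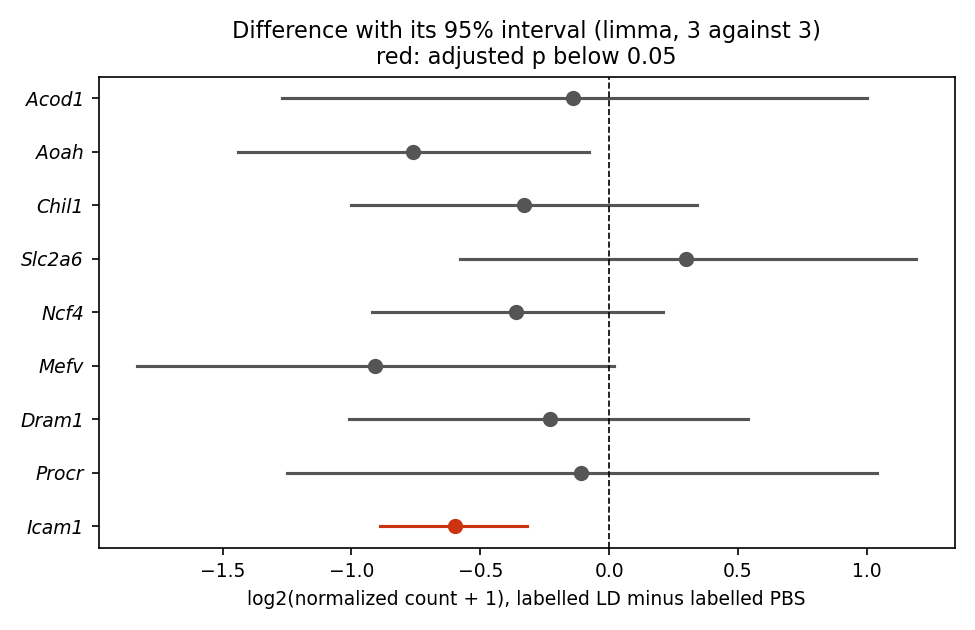
Difference in log2(normalized count + 1) between the libraries labelled LD and PBS (x axis) for each of the 9 genes (rows); points are limma estimates and lines their 95% intervals. The interval of Icam1 runs from -0.89 to -0.32 and that of Procr from -1.25 to 1.04.

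Aoah was at 54.2, 85.6 and 92.9 in the libraries labelled PBS and at 51.4, 52.1 and 32.1 in those labelled LD. Its groups did not overlap either, and its difference of -0.76 (95% interval -1.44 to -0.08) had an unadjusted limma p of 0.032 and an adjusted p of 0.205. Mefv was at 30.1, 66.7 and 54.6 against 40.9, 20.6 and 18.6. These groups overlap, and the difference of -0.91 (-1.83 to 0.02) missed the threshold in limma (adjusted p = 0.263). Acod1 was at 11, 33.4 and 31.9 against 28.3, 13 and 23.8. The lowest library of each group lay well below the rest of it, and the interval ran from -1.27 to 1.0.

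Ncf4, Chil1 and Dram1 had small differences with intervals across 0. Ncf4 was at 106, 130 and 140 against 114, 67.3 and 119 (-0.92 to 0.21). Chil1 was at 41.1, 48.7 and 56.5 against 39.9, 28.2 and 49.7 (-1.0 to 0.34). Dram1 was at 20.1, 27.9 and 32.8 against 25.2, 18.4 and 23.8 (-1.01 to 0.54). In all 3 genes LD replicate 2 was the lowest of the libraries. Procr, at 18.1, 40.6 and 79.2 against 43, 45.6 and 23.8, had the widest interval of the 9, and Slc2a6, at 12, 16.2 and 20 against 15.7, 19.5 and 24.8, was the gene with a difference above 0 (0.30, -0.58 to 1.19).

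Within the libraries labelled PBS, replicate 1 was the lowest for 8 of 9 genes and replicate 3 the highest for 7. The summed macrophage markers had the same order, at 31126, 35643 and 45074 normalized counts in replicates 1 to 3. In the libraries labelled LD the sum was 35027, 26598 and 31665, and replicate 2 was lowest for 4 of the 9 genes. Of the 16 macrophage markers 1 rose, Marco, and 1 fell, Lyz2. Of 7 neutrophil markers tested 0 were called by limma or edgeR and 1 by DESeq2, with 2 at an unadjusted p below 0.05, and the sum over 12 ran from 403 to 550 in the libraries labelled PBS and from 282 to 505 in those labelled LD. Markers of other cell types were called as well. Of 11 stellate cell and fibroblast markers 4 fell, led by the collagen genes Col1a1 (-0.92 ± 0.11 SE) and Col3a1 (-0.91 ± 0.10), with a list median of -0.39. Of 9 cholangiocyte markers 4 fell, led by Epcam (-1.76 ± 0.26) and Spp1 (-1.26 ± 0.28), with a list median of -0.87. The monocyte marker Ccr2 (-0.92 ± 0.16) and the mesothelial marker Krt19 (-0.87 ± 0.19) fell, each 1 of its list, and the T cell marker Cd4 rose (2.0 ± 0.38). Of 11 endothelial markers limma, edgeR and DESeq2 called 0, and 0 had an unadjusted p below 0.05. The sum over 12 hepatocyte markers ran from 3611635 to 4539381 in the libraries labelled PBS and from 4562524 to 4939156 in those labelled LD. Their list median was 0.33. Of these 12, limma called 0, edgeR 1 and DESeq2 4, and 5 had an unadjusted limma p below 0.05. The part of all these markers in the levels of the 9 genes was not tested.

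Of the 134 related genes tested here, 2 rose and 2 fell, against 1.95% and 2.21% of all genes. Without PBS replicate 2 or 3 or LD replicate 2 there was 1 call, without LD replicate 1 there were 2, and without LD replicate 3 there were 9. The scavenger receptor Cd163, an alternative activation gene, rose from 19.6 ± 5.13 to 139 ± 37.7 normalized counts (SD, n = 3; 2.76 ± 0.29 SE, limma adjusted p = 0.00293), and that call held without any 1 library. Relb, the NF-kappaB subunit that was higher in the libraries labelled KO, fell here from 303 ± 13 to 177 ± 30.1 (-0.79 ± 0.16, limma adjusted p = 0.0278). The transglutaminase Tgm2 fell (-0.50 ± 0.11) and the protein C inhibitor Serpina5 rose (2.66 ± 0.57). Relb and Tgm2 kept their calls in 1 of 6 fits without 1 library, the fit without LD replicate 3, with adjusted p up to 0.115 and 0.148 otherwise. Serpina5 lost its call without PBS replicate 2 or 3 or LD replicate 1 or 2, with adjusted p up to 0.133.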

How the data were processed

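Bulk signal values were deposited by the authors as gene read counts divided by 1 size factor per library: in all 12 columns every value was a whole multiple of 1 step within 0.01, so that whole reads were recovered for the count tests. The deposited log2 fold changes and deposited p-values of the authors were not used. The submitters' processing notes name FastQC, STAR, DESeq2, Cell Ranger and Seurat 4.0.1 on build mm10; the read counter and annotation are not given in the sources used here. Nuclei signal values were deposited by the authors as means of UMIs scaled to 10000 per nucleus; each column sums to that total, and filters and doublet treatment are not given. Rows of nuclei whose gene name occurs more than once (4) were dropped.

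Each bulk table was fitted alone with limma 3.58.1 (trend, 2-sided) in R 4.3.3 on log2(normalized count + 1), over genes with at least 10 in 3 or more libraries, with Benjamini-Hochberg adjustment at 0.05. Alternatives were edgeR 4.0.16 and DESeq2 1.42.0 on the recovered reads, TMM and quantile scaling, pseudocounts of 0.1 and 5, no filter, a mean of at least 50, a replicate block and leaving out each library. The fit was tested on simulated data. Groups of nuclei were named from marker lists. Named related genes are the leading 2 called per list and direction. Genes, lists and patterns were chosen with earlier results of these data, or the promoter letters, known. Positions are GENCODE M21 (mm10).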

Additional observations from a re-analysis of the deposited data

How the results depend on the processing

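With DESeq2 the genes called rose to 1241 for the libraries labelled wild type and KO (589 in limma) and to 1221 for PBS and LD (620), and the related genes called to 13 for PBS and LD (4 in limma). Leaving out 1 library at a time gave 108 to 479 and 135 to 1205 genes called, 14 to 29 (of 40) and 1 to 9 related genes, and 0 to 1 of the 9 genes for PBS and LD. Over all genes tested, same-numbered libraries did not deviate together (correlations of -0.03 to 0.119 and -0.043 to 0.132). For myeloid markers, replicate 1 was low with both the wild type and the KO label. The summed macrophage markers were there at 0.619 and 0.702 of the group mean, and the summed neutrophil markers at 0.688 and 0.524. With the replicate number as a block, 7 related genes were called for PBS and LD, and 822 and 793 genes in all. That pairing ended the calls of Pstpip1 and Tfeb (adjusted p = 0.081 and 0.0789), as did quantile scaling (0.0655 and 0.0545), a pseudocount of 0.1 for Pstpip1 (0.0639) and no filter for Tfeb (0.0511), while Icam1 kept its call (adjusted p = 0.0134).

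For the 9 genes, all 129 alternative values of the KO minus wild type difference kept their sign, and 8 moved by over 1 SD, all in Acod1, Slc2a6 and Mefv, through the pseudocount or the count tools. Their median ran from 3.54 to 4.18. Without 1 library labelled KO, Acod1 and Slc2a6 had too few counts to test. In PBS and LD, the difference of Acod1 changed sign with quantile scaling (0.01) and ran from -0.63 to 0.18 without 1 library, and that of Procr likewise (0.04, and -0.64 to 0.40). Icam1 stayed between -0.72 and -0.52 and passed in all 9 alternatives that keep every library, as given above for those that do not. In nuclei, 5 of 9 genes were highest in group 5 by share of the summed level, and 6 in either library alone (in wild type with Icam1 in place of Procr), the latter added after seeing the data. The cause of these changes was not tested. Few reads limit Acod1, Slc2a6 and Chil1 in the libraries labelled wild type, and few genes above 0 limit group 5.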
